A study of Mus musculus with 11 samples.

Results

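The small RNAs of sperm lacking Dicer in the male germ line were compared with those of wild-type (WT) sperm, over every miRNA and endogenous small interfering RNA (endo-siRNA) row of the count table. The comparison took all 4 libraries of these 2 groups, 2 of WT and 2 of Dicer conditional knockout (cKO) sperm, out of 11 libraries in the series, and all 2304 features, 1592 of them mature miRNAs and 712 of them endo-siRNAs. Sperm of both groups came from the cauda epididymis of adult mice on the C57BL/6 background and was spun down from the collection medium. The knockout was made in the germ line with Cre and loxP. No Cre line is named in the labels, and neither is a step that lyses somatic cells. WT mice are labelled only as wild type, so whether they carried a floxed allele or a Cre transgene is not given. The 3 Drosha cKO sperm libraries, from the same kind of germ line knockout, entered the fit through the spread, the scaling and the count filter, and are not compared here. Separate animals are not stated for the libraries, and a p-value here reflects only how far these samples scatter, which may be technical. Messenger RNA was not measured, and the loss of Dicer itself was therefore not checked.

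Dicer is the RNase III enzyme of the cytoplasm that cuts a miRNA hairpin into a short duplex. A strand of that duplex, the 5p arm or the 3p arm, is then kept by an Argonaute protein, and its seed, the bases near the 5′ end, pairs with target messenger RNAs. Dicer also cuts long double-stranded RNA into endo-siRNAs. Spermatozoa are transcriptionally silent, and they receive further RNA from the epithelium of the epididymis, whose cells are somatic and keep their Dicer in a germ line knockout.

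The mature sequences of the miRNAs on which the results turn are shown first, from RefSeq on GRCm38.p6, the assembly that mm10 denotes, 5′ to 3′ with the seed (bases 2 to 8) in capitals. Of the 321 tested miRNAs, 260 had a mature sequence in that table. A seed family that was called in both directions comes first, from hairpins on chromosomes 9, 13 and 4.
miR-34b-5p: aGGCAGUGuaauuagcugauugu
miR-449a-5p: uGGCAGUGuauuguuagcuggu
miR-34a-5p: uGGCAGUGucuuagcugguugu

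An X-linked testis pair follows, and then miRNAs of the miR-17-92 cluster and its paralog, which carry 2 seeds. miR-743a-3p and miR-743b-3p differ at 3 bases, C9U, A12U and G18A, and miR-19a-3p and miR-19b-3p at 1 base, U11C, counted from the 5′ end with the base of the first-named miRNA first.
miR-743a-3p: gAAAGACAccaagcugaguaga
miR-743b-3p: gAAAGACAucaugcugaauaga
miR-19a-3p: uGUGCAAAucuaugcaaaacuga
miR-19b-3p: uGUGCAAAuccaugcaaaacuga
miR-20a-5p: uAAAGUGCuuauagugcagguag
miR-17-5p: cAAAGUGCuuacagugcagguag
miR-93-5p: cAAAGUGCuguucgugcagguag
miR-106b-5p: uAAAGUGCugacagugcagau

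The next set shows arms of hairpins called for an unequal change of their arms, each call being lost in some setting. Beside them stands miR-16-5p, which has the seed of miR-15b-5p.
miR-106b-3p: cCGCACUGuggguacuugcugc
miR-15b-5p: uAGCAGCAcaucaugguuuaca
miR-16-5p: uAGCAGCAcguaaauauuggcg
miR-15b-3p: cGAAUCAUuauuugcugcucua
miR-130b-5p: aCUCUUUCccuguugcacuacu
miR-130b-3p: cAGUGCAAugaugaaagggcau
miR-6914-3p: uCUGUCCAccucuucccag

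The last set holds abundant miRNAs of Dicer cKO sperm. miR-10a-5p and miR-10b-5p differ at 1 base, U12A, and miR-200a-3p and miR-141-3p at 2 bases, C17A and U22G.
miR-10a-5p: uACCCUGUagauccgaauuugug
miR-10b-5p: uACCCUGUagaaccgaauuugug
miR-200c-3p: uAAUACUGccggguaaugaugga
miR-200b-3p: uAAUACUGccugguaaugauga
miR-200a-3p: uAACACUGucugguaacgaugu
miR-141-3p: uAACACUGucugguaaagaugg
miR-451a: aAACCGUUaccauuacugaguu

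Listed reads, the sum of all counts in a library, numbered 73377 and 278890 in WT against 122989 and 108141 in Dicer cKO sperm, in the order of the replicate numbers. Levels are given as CPM, a read count scaled to the listed reads of its library, on which 3 reads are 40.9 and 10.8 CPM in the WT and 24.4 and 27.7 CPM in the Dicer cKO libraries. Log2 changes are Dicer cKO minus WT from the edgeR fit, which adds TMM factors to these totals. Totals without TMM moved the median log2 change of all tested features from 0.03 to 0.62, and the authors' library divisor moved it to 0.88. CPM values side by side therefore put Dicer cKO sperm higher, relative to WT sperm, than the fitted log2 changes do. Both pairs of replicates differed beyond counting error (chi-square per degree of freedom 42.0 for WT and 13.2 for Dicer cKO).

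The miRNAs that dominated WT sperm made up a small part of Dicer cKO sperm, and other miRNAs filled its libraries. Of 335 features that passed the count filter, edgeR called 158 (47.2%) at an adjusted p under 0.05. Lower in Dicer cKO sperm were 104 features (31.0%), 102 of them miRNAs, and higher were 54 (16.1%), 53 of them miRNAs. With TMM scaling the median log2 change was −4.08 among the lower features and 2.37 among the higher ones, against 0.03 over all tested. How falls compare with rises in size depended on the scaling. With limma on the authors' RPM the medians of the X-linked and Sfmbt2 lists were −2.98 and −2.94. Those of the epithelial and blood cell markers described below were 3.20 and 3.27. Changes beyond 16-fold downward were fitted for 56 features, which held 32.9% and 34.8% of listed reads in WT against 1.86% and 1.96% in Dicer cKO sperm. The 104 lower features held 72.2% and 79.7% in WT against 13.4% and 14.6% in Dicer cKO sperm. The 54 higher features held 11.8% and 9.24% in WT against 63.5% and 62.3% in Dicer cKO sperm, and the 177 features not called held 13.5% and 10.1% against 22.0% and 21.9%. In CPM the groups did not overlap for any of the 158 called features; of all tested features 34.9% were apart downward and 46.3% upward. In the authors' RPM the groups did not overlap for 82 of the 104 lower features (25.4% of all tested in that direction) and for all 54 higher ones (43.6%). Features under the filter, 1969 in number, held between 1.01% and 2.53% of listed reads in each of the 4 libraries and were not tested. A feature could pass the filter on the reads of a single group. The share of a family's or cluster's tested members that was called therefore depends in part on the filter.

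The split between falls and rises depended on the scaling and on single libraries. With library totals alone 91 features were lower and 101 higher, with only the 4 compared libraries in the fit 102 and 96, and with limma on the authors' RPM 63 and 61. Rises numbered 33 with WT replicate 2 left out, 19 with Dicer cKO replicate 1 left out and 23 with Dicer cKO replicate 2 left out, and the count of falls stayed between 89 and 115 when any of the 4 libraries was left out. Of the called features, 60 lower and 13 higher ones kept their call in each of 19 alternative settings.

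**Figure D1:**
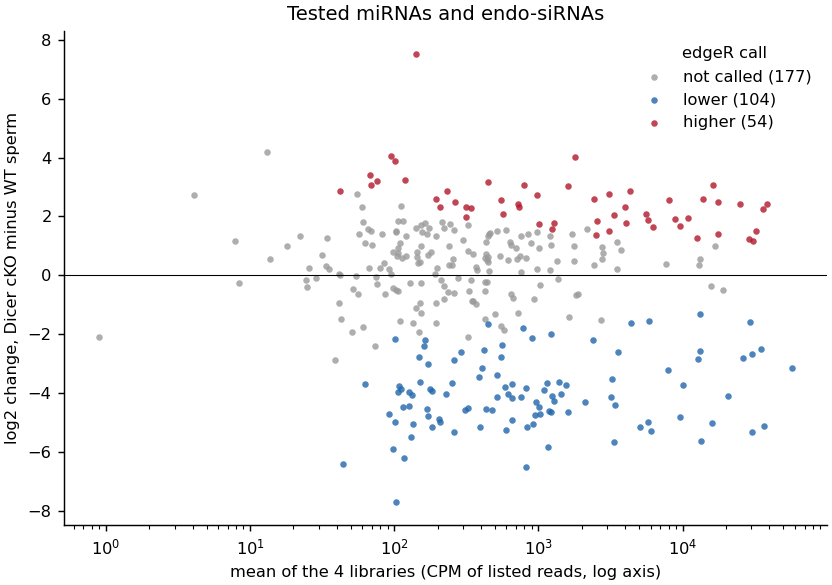
Log2 change between Dicer cKO and WT sperm (vertical axis) against the mean level of the 4 libraries in CPM (horizontal log axis) for the 335 tested features, colored by the edgeR call. With TMM scaling the 104 lower features reach further from 0 than the 54 higher ones apart from miR-6914-3p. Fitted values of features without a read in a group depend on the prior count. Such are miR-6914-3p, with no WT read, and the falls of miR-293-3p and endo-siRNA-Sp105, with no Dicer cKO read.

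The ranking of the most abundant miRNAs was replaced. No miRNA was shared between the 10 most abundant of WT and the 10 most abundant of Dicer cKO sperm by mean CPM, and 6 were shared between the top 20 and 28 between the top 50. Each top 10 was picked on the levels that are compared, which favors falls in the WT list and rises in the Dicer cKO list. All 10 of the WT top 10 were called lower (31.0% of all tested features were), and 9 of the 10 in Dicer cKO sperm were called higher (16.1% of all). miR-26a-5p, a broadly expressed miRNA, was the exception, with 8654 and 7243 CPM in the WT libraries and 23457 and 27908 CPM in those of Dicer cKO sperm (a log2 change of 1.01 with SE 0.437 and edgeR adjusted p = 0.0689). Its groups did not overlap. Reads were spread over a few more features in Dicer cKO sperm, where 13 features made up 50% of listed reads in either library, against 11 and 9 in WT sperm.

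**Figure D2:**
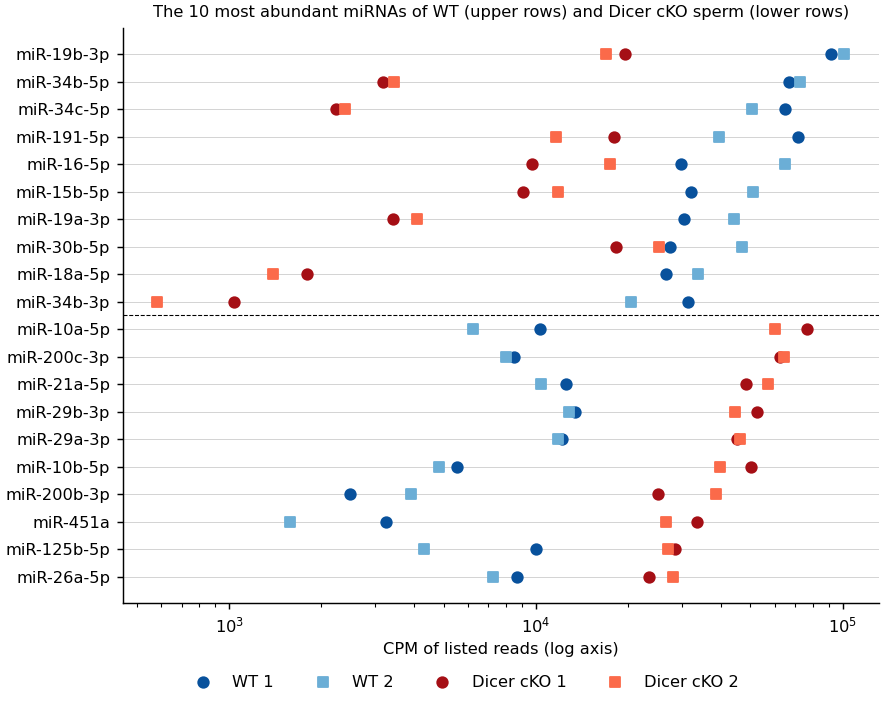
CPM of listed reads (log axis) in each of the 4 libraries for the 10 most abundant miRNAs of WT sperm (above the dashed line) and of Dicer cKO sperm (below it). Blue WT and red Dicer cKO points do not overlap in any row, and the order of the colors reverses at the line, which the choice of rows favors. For miR-30b-5p the gap is small, from 27338 CPM in WT replicate 1 to 25125 CPM in Dicer cKO replicate 2.

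Among the largest falls were those of miRNAs known for male germ cells. The miR-34 and miR-449 family, made in meiotic and haploid male germ cells and in ciliated epithelium, held 18.2% and 16.3% of listed reads in WT against 1.35% and 1.26% in Dicer cKO sperm. miR-34b-5p had 66792 and 72584 CPM in the WT libraries and 3179 and 3458 CPM in those of Dicer cKO sperm (a log2 change of −5.13 with SE 0.533 and edgeR adjusted p = 5.11e-06). Its hairpin lies at chr9:51103562-51103645 within the annotated spans of Btg4 and Hoatz. Both libraries of a group lay close together, and the groups were far apart. The opposite arm miR-34b-3p had 31427 and 20424 CPM in the WT libraries and 1041 and 583 CPM in those of Dicer cKO sperm (a log2 change of −5.62 with SE 0.582 and edgeR adjusted p = 5.11e-06), and miR-34c-3p changed by −5.67. miR-449a-5p, from chr13:113037534-113037624 within the span of Cdc20b, had 10071 and 12980.0 CPM in the WT libraries and 439 and 573 CPM in those of Dicer cKO sperm (a log2 change of −5.28 with SE 0.62 and edgeR adjusted p = 1.62e-05). Of 6 tested members 5 fell and 1 rose (31.0% and 16.1% of all tested features did), with a family median of −5.30. The member that rose was miR-34a-5p, the p53-induced relative that is broad in somatic tissue, from chr4:150068454-150068555. It had 845 and 864 CPM in the WT libraries and 6285 and 5400.4 CPM in those of Dicer cKO sperm (a log2 change of 2.04 with SE 0.562 and edgeR adjusted p = 0.007). Leaving out WT replicate 1 gave an adjusted p of 0.0651, and leaving out Dicer cKO replicate 1 gave 0.146. miR-34a-5p and miR-34b-5p carry the same seed, and the reads of the 3 tested miRNAs with that seed in the RefSeq table summed to 7.77% and 8.64% of listed reads in WT against 0.990% and 0.943% in Dicer cKO sperm. miR-34c-5p has no entry in that table and is not in this sum.

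On chromosome X every tested miRNA of the testis cluster fell. The testis cluster near Fmr1, whose tested hairpins span chrX:66776757-66839125, had 37 members, of which 29 were tested. All 29 fell, against 31.0% of all tested features, with log2 changes from −5.50 to −2.55 and a median of −4.27. A miRNA could pass the count filter on WT reads alone, so the members tested are partly chosen for a high WT level. miR-743a-3p had 13955 and 8061 CPM in the WT libraries and 577 and 472 CPM in those of Dicer cKO sperm (a log2 change of −4.99 with SE 0.605 and edgeR adjusted p = 2.05e-05), and miR-743b-3p, with the same seed, had 11461 and 7878 CPM in the WT libraries and 577 and 268 CPM in those of Dicer cKO sperm (a log2 change of −5.15 with SE 0.827 and edgeR adjusted p = 0.000238). miR-880-3p changed by −4.40 and miR-465a-3p by −4.15. The cluster's smallest fall was that of miR-871-3p, with 641 and 663 CPM in the WT libraries and 146 and 221.9 CPM in those of Dicer cKO sperm (a log2 change of −2.55 with SE 0.721 and edgeR adjusted p = 0.00828). Leaving out Dicer cKO replicate 1 gave an adjusted p of 0.0965, and leaving out Dicer cKO replicate 2 gave 0.0551. It was also not called with limma, the authors' divisor or either other count filter. Of 18 other tested miRNAs whose matched hairpins all lie on chromosome X, 3 were called higher and 15 were not called, with a median of 0.90. miR-19b-3p, which fell, and let-7f-5p, which was called higher, are not among them, since each matches a hairpin on chromosome X and another on an autosome. The 3 were miR-221-3p, miR-222-3p and miR-223-3p. No test of the cluster against the other X-linked miRNAs was made, and the median of all tested features stood at 0.03.

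Clusters known from early embryos, placenta and the germ line fell as well. The list of the large cluster inside the Sfmbt2 gene was drawn up by miRNA name and had 70 members, 30 of them tested. Of these 29 fell, against 31.0% of all tested features, and miR-466i-5p, at a log2 change of −0.49, was not called. A member could pass the count filter on WT reads alone, so the members tested are partly chosen for a high WT level. With at least 10 CPM in 2 libraries 29 of 57 tested members were lower, and without a count filter 22 of 68. By RefSeq match miR-467h lies on chromosome 9 and miR-466i-3p on chromosome 13, so a name does not place a member inside that gene. The median was −4.55, and 19 of the 30 were called with limma on the authors' RPM. miR-669a-3p, its most abundant member, had 10017 and 25996 CPM in the WT libraries and 935 and 1461 CPM in those of Dicer cKO sperm (a log2 change of −4.80 with SE 0.714 and edgeR adjusted p = 0.000124). The WT libraries differed more for this list, 2.46% and 5.74% of listed reads, than the Dicer cKO libraries, 0.281% and 0.409%. The groups did not overlap. Many members of this list are close in sequence, and reads may be shared between them. No source available states how reads with several matches were counted. miR-296-5p, from the imprinted Gnas locus, had 2780.2 and 469.7 CPM in the WT libraries and 16.3 and 27.7 CPM in those of Dicer cKO sperm (a log2 change of −6.51 with SE 0.919 and edgeR adjusted p = 9.56e-05), and the WT libraries differed severalfold with both far above the Dicer cKO libraries. miR-184-3p, a miRNA of epithelia and germ cells, had 2671 and 1861 CPM in the WT libraries and 56.9 and 64.7 CPM in those of Dicer cKO sperm (a log2 change of −5.83 with SE 0.735 and edgeR adjusted p = 2.92e-05).

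Several of the largest falls rest on very few reads in Dicer cKO sperm. Ratios of the shares of listed reads, with reads summed over the libraries of a group, are given in place of fitted values. miR-293-3p of the embryonic miR-290 to miR-295 cluster had 18 and 46 reads in WT against 0 and 0 reads in Dicer cKO sperm. It was at least 14.0-fold lower, taking 3 reads over the group as the floor. Its cluster partner miR-294-3p had 17 and 34 reads in WT against 2 and 0 reads in Dicer cKO sperm, a ratio of 16.7-fold lower (95% counting interval 4.40 to 141.9). The call was not kept when Dicer cKO replicate 2 was left out (adjusted p = 0.0555). miR-742-5p of the X-linked cluster had 12 and 95 reads in WT against 0 and 2 reads in Dicer cKO sperm and was 35.1-fold lower (9.48 to 293.6). In the Sfmbt2 list miR-669m-3p, with 9 and 94 reads in WT against 0 and 1 reads in Dicer cKO sperm, was 67.6-fold lower (11.9 to 2695). These intervals cover counting error only, and reads without molecular identifiers are not independent molecules.

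Abundant miRNAs of dividing cells fell less evenly. The miR-17-92 and paralog clusters held 18.7% and 22.3% of listed reads in WT against 3.90% and 3.48% in Dicer cKO sperm. Of 11 tested members 7 were called lower, against 31.0% of all tested features, and the median was −2.86. With limma on RPM 3 were lower and 1 higher, and 1 was higher without any 1 of the Drosha cKO libraries. Members of the cluster on chromosome 14 (tested hairpins at chr14:115043671-115044263), which are cut from the same primary transcript, were spread over several log2 units. miR-18a-5p had 26602 and 33644 CPM in the WT libraries and 1797 and 1387 CPM in those of Dicer cKO sperm (a log2 change of −5.01 with SE 0.574 and edgeR adjusted p = 1.46e-05). miR-19a-3p had 30500.0 and 44121 CPM in the WT libraries and 3415 and 4096 CPM in those of Dicer cKO sperm (a log2 change of −4.11 with SE 0.559 and edgeR adjusted p = 6.78e-05). The top miRNA of both WT libraries, miR-19b-3p, kept a larger part of its level, with 91364 and 101201 CPM in the WT libraries and 19563 and 16913 CPM in those of Dicer cKO sperm (a log2 change of −3.14 with SE 0.457 and edgeR adjusted p = 0.000113); its sequence also matches a hairpin on chromosome X. miR-20a-5p changed by −2.86. miR-17-5p, which differs from miR-20a-5p at 2 bases, C1U and C12U, had 2971 and 3829 CPM in the WT libraries and 1943 and 2118 CPM in those of Dicer cKO sperm (a log2 change of −1.52 with SE 0.613 and edgeR adjusted p = 0.0523) and was not called. The groups of miR-17-5p did not overlap in CPM and overlapped in RPM. Differences between members of the cluster were not tested.

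miR-92a-3p, the last miRNA of that cluster, did not pass the count filter, with 7 and 15 reads in WT against 10 and 1 reads in Dicer cKO sperm. The paralog cluster at chr5:138165321-138165818, within the span of Mcm7, had miR-93-5p at 14323 and 12549.8 CPM in the WT libraries and 2521 and 2099 CPM in those of Dicer cKO sperm (a log2 change of −3.23 with SE 0.572 and edgeR adjusted p = 0.000408). miR-25-3p changed by −2.14 and was called lower. It was not called with limma (adjusted p = 0.32). By edgeR it was also not called with the authors' divisor (adjusted p = 0.26), at least 10 CPM in 2 libraries (0.216) or no count filter (0.531). Leaving out Dicer cKO replicate 1 gave an adjusted p of 0.0965, and leaving out Dicer cKO replicate 2 gave 0.0904.

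The family of miR-15, miR-16 and miR-195 is known for restraining the cell cycle. Of its 7 tested members 5 were called lower, against 31.0% of all tested features, and the median was −2.58. miR-16-5p had 29628 and 64854 CPM in the WT libraries and 9700.0 and 17505 CPM in those of Dicer cKO sperm (a log2 change of −2.66 with SE 0.588 and edgeR adjusted p = 0.00167), and miR-15b-5p had 32040.0 and 51182 CPM in the WT libraries and 9090.2 and 11836 CPM in those of Dicer cKO sperm (a log2 change of −2.81 with SE 0.554 and edgeR adjusted p = 0.000787). Both were apart in CPM and overlapped between groups in the authors' RPM, as did the family's sum, and with limma on RPM the family had no member lower and 1 higher. With the authors' divisor 1 member was lower, and without WT replicate 2 there was 1 member higher. miR-191-5p and miR-425-5p, cut from neighboring hairpins at chr9:108568319-108568861, both fell. miR-191-5p had 71289 and 39625 CPM in the WT libraries and 18018 and 11633 CPM in those of Dicer cKO sperm (a log2 change of −2.50 with SE 0.537 and edgeR adjusted p = 0.00137). It was not called with the authors' divisor (adjusted p = 0.126), limma (0.17) or no count filter (0.098). miR-425-5p had 28333 and 7964 CPM in the WT libraries and 2195 and 1599.8 CPM in those of Dicer cKO sperm (a log2 change of −3.72 with SE 0.66 and edgeR adjusted p = 0.000408). The miR-30 family stayed abundant, at 7.67% and 8.76% of listed reads in WT against 7.05% and 7.63% in Dicer cKO sperm. Of 7 tested members 3 were called lower, against 31.0% of all tested features. The count was 1 without WT replicate 2 and none without Dicer cKO replicate 1 or with totals alone, the authors' divisor or limma. Neither other count filter left a member of the family lower. With totals alone 1 member was called higher, and with only the 4 compared libraries 2 were lower and 1 higher. miR-30b-5p had 27338 and 46864 CPM in the WT libraries and 18180.5 and 25125 CPM in those of Dicer cKO sperm (a log2 change of −1.60 with SE 0.526 and edgeR adjusted p = 0.019). With Dicer cKO replicate 1 left out it missed the threshold (adjusted p = 0.0941). miR-30d-5p, with 24572 and 12532 CPM in the WT libraries and 22034 and 17514 CPM in those of Dicer cKO sperm, overlapped between the groups (log2 change −0.49).

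**Figure D3:**
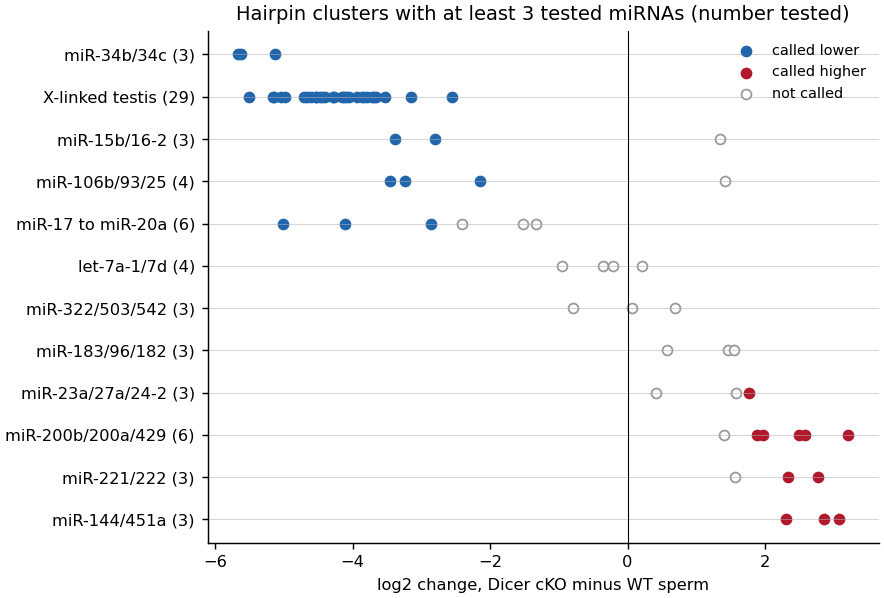
Log2 change between Dicer cKO and WT sperm (horizontal axis) of each tested miRNA in the 12 clusters of hairpins, joined at gaps of up to 10000 bases, that had at least 3 tested miRNAs; filled points were called by edgeR and open points were not. All 29 miRNAs of the X-linked cluster lie below −2.5, the miR-17 to miR-20a cluster runs from −5.01 to −1.33, and no cluster holds calls in both directions.

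The count of 37 hairpin clusters with at least 2 tested miRNAs includes single hairpins with both arms tested, and miRNAs without a matched hairpin were left out. Of the 37, 5 had all tested members lower, including the single hairpin of miR-340, and 4 had all higher. All members were higher for miR-144 with miR-451a, miR-200c with miR-141, both arms of miR-31 and both arms of miR-10a. No cluster had calls in both directions. Members of a cluster share a transcript, so the clusters are not made of independent features.

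Of the 104 lower features 18 lay outside the fixed lists, with a median of −2.77. The features tested outside the lists were not counted. The 18 are therefore no rate to set beside the 31.0% of all tested features called lower. These 18 held 3.84% and 3.52% of listed reads in WT against 1.27% and 1.21% in Dicer cKO sperm. Those described here were chosen after their values were seen, except miR-301a-3p. miR-128-3p, a miRNA best known from neurons, had 2753 and 2459.8 CPM in the WT libraries and 423 and 92.5 CPM in those of Dicer cKO sperm (a log2 change of −4.02 with SE 0.793 and edgeR adjusted p = 0.000787). Dicer cKO replicate 1 stood above replicate 2, and both stood under both WT libraries. miR-375-3p, known from pancreatic islets, showed the same order, with 3094 and 939 CPM in the WT libraries and 292.7 and 74 CPM in those of Dicer cKO sperm (a log2 change of −3.91 with SE 0.953 and edgeR adjusted p = 0.0029). miR-124-3p, another miRNA of neurons, had 27 and 79 reads in WT against 2 and 2 reads in Dicer cKO sperm (a log2 change of −4.79 with SE 0.913 and edgeR adjusted p = 0.000693). miR-301a-3p, which has the seed of miR-130b-3p, had 1622 and 2402 CPM in the WT libraries and 203 and 351 CPM in those of Dicer cKO sperm (a log2 change of −3.66 with SE 0.78 and edgeR adjusted p = 0.00132). These 4 kept their calls in every alternative run.

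Among the miRNAs that rose were many known from epithelial and blood cells. The 11 epithelial markers summed to 1.67% and 1.85% of listed reads in WT against 13.7% and 16.4% in Dicer cKO sperm, and 8 of 9 tested rose (16.1% of all tested features were called higher), with a median of 2.50. miR-200c-3p had 8504 and 7999.6 CPM in the WT libraries and 62599 and 64545 CPM in those of Dicer cKO sperm (a log2 change of 2.24 with SE 0.444 and edgeR adjusted p = 0.000787) and miR-200b-3p had 2480.3 and 3919 CPM in the WT libraries and 25035 and 38588 CPM in those of Dicer cKO sperm (a log2 change of 2.50 with SE 0.533 and edgeR adjusted p = 0.00132). These belong to 2 clusters, at chr6:124717914-124718390 and chr4:156053905-156055750, and keep the epithelial state by acting on Zeb1 and Zeb2. miR-200a-3p changed by 2.59 and miR-141-3p, which shares its seed, by 2.56. miR-205-5p, of basal epithelium, had 790.4 and 251 CPM in the WT libraries and 5870.4 and 2857 CPM in those of Dicer cKO sperm (a log2 change of 2.59 with SE 0.603 and edgeR adjusted p = 0.00211). It was no longer called once Dicer cKO replicate 1 was left out (adjusted p = 0.204). The count of 8 became 4 without Dicer cKO replicate 1, and it was 5 when replicate 2 of that group was left out. Every epithelial marker had a read in both groups. In the authors' RPM the sums were 359.9 and 1858 in WT against 6058 and 11534 in Dicer cKO libraries, so the groups did not overlap on that scale either. In bulk RNA fewer cells of a type and less RNA per cell cannot be told apart.

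Blood cell markers summed to 0.544% and 0.530% of listed reads in WT against 5.17% in each Dicer cKO library. Of 8 tested 5 rose, against 16.1% of all tested features, with a median of 2.55. Of the 16 markers, 4 had no read in WT sperm (miR-142a-5p, miR-155-3p, miR-451b and miR-486a-3p), and 5 had none in Dicer cKO sperm, those and miR-223-5p. miR-451a of red cells, which Ago2 cuts in place of Dicer, had 3244 and 1585 CPM in the WT libraries and 33556 and 26632 CPM in those of Dicer cKO sperm (a log2 change of 3.07 with SE 0.496 and edgeR adjusted p = 0.000239). miR-144-3p, from the same cluster at chr11:78073005-78073241 but cut by Dicer, had 368 and 825 CPM in the WT libraries and 5683 and 10394 CPM in those of Dicer cKO sperm (a log2 change of 2.86 with SE 0.71 and edgeR adjusted p = 0.00333). Its ratio to miR-451a was not tested. miR-150-5p of lymphocytes had 136.3 and 122 CPM in the WT libraries and 4212 and 2709 CPM in those of Dicer cKO sperm (a log2 change of 4.01 with SE 0.684 and edgeR adjusted p = 0.000354), the largest rise among features with over 100 reads in a library. miR-223-3p of myeloid cells changed by 2.73. The call was not kept when Dicer cKO replicate 1 was left out (adjusted p = 0.0873). miR-142-3p, of all leukocytes, had 1131 and 1757 CPM in the WT libraries and 4415 and 6667 CPM in those of Dicer cKO sperm and was not called (log2 change 1.13, edgeR adjusted p = 0.141). The count of 5 became 3 without Dicer cKO replicate 1. Stromal and smooth muscle markers summed to 0.861% and 0.343% in WT against 2.74% and 1.97% in Dicer cKO sperm, and 2 of 7 tested rose, against 16.1% of all tested features. With totals alone 4 were called, with only the 4 compared libraries 3, and with the authors' divisor 1. None was called with WT replicate 2 or Dicer cKO replicate 1 left out, and 1 was called with either other library of the 4 left out. The stromal marker miR-145a-3p had no read in WT sperm. These marker sums were higher in the libraries in which the germ cell lists were lower, and their part in the falls and rises was not tested.

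**Figure D4:**
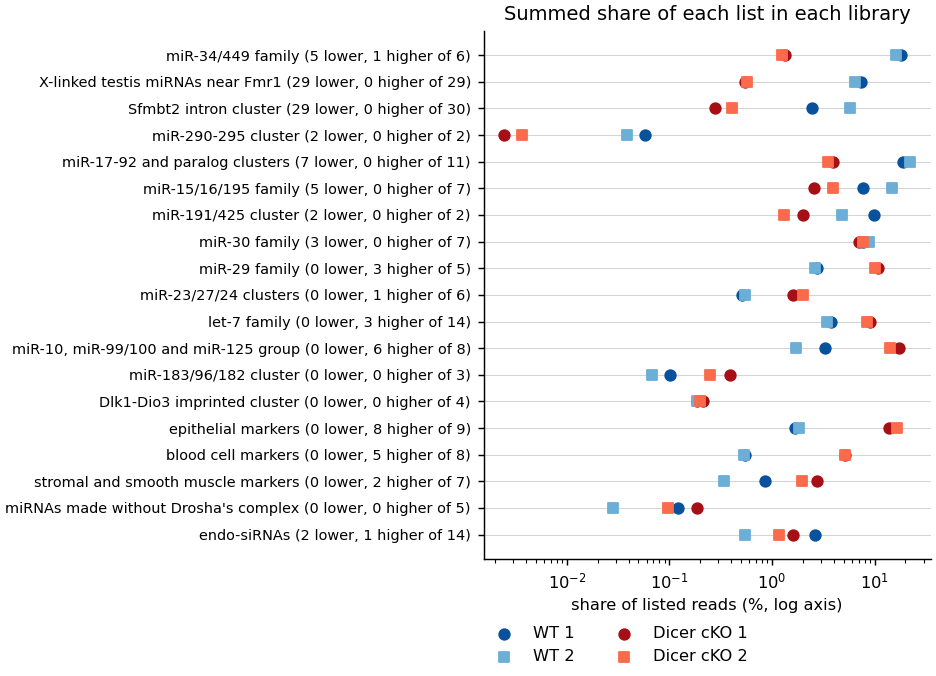
Share of listed reads (%, log axis) that the members of each list sum to in each of the 4 libraries, with the number of tested members called lower and higher beside its name. The germ cell lists at the top are lower in both Dicer cKO libraries, the epithelial, blood and stromal markers are higher in both, and the miR-30 family is nearly level at 7.05% to 8.76%.

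The miR-10 family, with miR-99, miR-100 and miR-125, held 3.27% and 1.71% of listed reads in WT against 17.4% and 14.2% in Dicer cKO sperm, and 6 of 8 tested members rose, with a median of 1.58. miR-10a-5p, from chr11:96317165-96317274 within the span of Hoxb3, had 10344 and 6239 CPM in the WT libraries and 76332 and 60024 CPM in those of Dicer cKO sperm (a log2 change of 2.43 with SE 0.467 and edgeR adjusted p = 0.000693). miR-10b-5p, within the spans of Hoxd3 and Hoxd4 on chromosome 2, had 5533 and 4833 CPM in the WT libraries and 50216 and 39717 CPM in those of Dicer cKO sperm (a log2 change of 2.42 with SE 0.477 and edgeR adjusted p = 0.000787). The count of 6, against 16.1% of all tested features, became 2 when WT replicate 2 or either Dicer cKO library was left out. In the miR-29 family, which acts on collagen messages, 3 of 5 tested members rose, against 16.1% of all tested features. miR-29c-3p had 1499 and 1341 CPM in the WT libraries and 10049.7 and 9478 CPM in those of Dicer cKO sperm (a log2 change of 2.08 with SE 0.508 and edgeR adjusted p = 0.00293). With Dicer cKO replicate 1 left out it missed the threshold (adjusted p = 0.0926). With WT replicate 1 or Dicer cKO replicate 2 left out, 1 member was called, and none was with Dicer cKO replicate 1 left out. With DESeq2, limma or the authors' divisor 1 was called.

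The let-7 family, which marks differentiated cells, had 3 of 14 tested members higher (16.1% of all tested features were), and its members ranged from −0.95 to 1.94. let-7c-5p had 4102 and 2273 CPM in the WT libraries and 19538 and 17533 CPM in those of Dicer cKO sperm (a log2 change of 1.94 with SE 0.439 and edgeR adjusted p = 0.00183). It was no longer called once Dicer cKO replicate 1 was left out (adjusted p = 0.11). let-7a-5p had 13369 and 13912 CPM in the WT libraries and 17302 and 17903 CPM in those of Dicer cKO sperm and was not called (log2 change −0.36). The 2 sequences thus stood apart in WT sperm and close together in Dicer cKO sperm; the difference between them was not tested. Replicate 2 of either group, when left out, lowered the 3 calls to 1, and leaving out Dicer cKO replicate 1 lowered them to 0. With totals alone, or with only the 4 compared libraries in the fit, 6 members were called higher, and with DESeq2, limma or the authors' divisor 2 were. In the miR-23/27/24 clusters 1 of 6 tested members, miR-23a-3p, was called higher, a share close to the 16.1% of all tested features (a log2 change of 1.76 with SE 0.559 and edgeR adjusted p = 0.0161), and that call was lost without any 1 of the 4 libraries (highest adjusted p = 0.215). Without any 1 of the Drosha cKO libraries 2 members were called, as with DESeq2, limma or only the 4 compared libraries, and with totals alone 3 were.

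Of the 54 higher features 24 lay outside the fixed lists, with a median of 2.59. The features tested outside the lists were not counted. The 24 are therefore no rate to set beside the 16.1% of all tested features called higher. miR-21a-5p, which is abundant in most somatic tissues, had 12497 and 10395 CPM in the WT libraries and 48273 and 57064 CPM in those of Dicer cKO sperm (a log2 change of 1.52 with SE 0.423 and edgeR adjusted p = 0.00747). Leaving out Dicer cKO replicate 1 gave an adjusted p of 0.148, and leaving out Dicer cKO replicate 2 gave 0.129. miR-222-3p and miR-221-3p, neighbors on chromosome X that act on the cell cycle inhibitor p27, rose by 2.77 and 2.34. miR-222-3p had 259 and 635 CPM in the WT libraries and 4870.4 and 6584 CPM in those of Dicer cKO sperm. miR-101a-3p, known to act on Ezh2, had 204 and 226 CPM in the WT libraries and 2870.2 and 3153 CPM in those of Dicer cKO sperm (a log2 change of 3.04 with SE 0.68 and edgeR adjusted p = 0.00176). miR-204-5p, of epithelia, had 190.8 and 61 CPM in the WT libraries and 1594 and 1322 CPM in those of Dicer cKO sperm (a log2 change of 3.06 with SE 0.68 and edgeR adjusted p = 0.0017). The call was not kept when Dicer cKO replicate 1 was left out (adjusted p = 0.0573). miR-126a-3p of endothelial cells, named after its values were seen, had 10 and 40 reads in WT against 75 and 151 reads in Dicer cKO sperm (a log2 change of 2.08 with SE 0.722 and edgeR adjusted p = 0.026). Its call was lost without any 1 of the 4 libraries (highest adjusted p = 0.388, without Dicer cKO replicate 2). miR-137-3p, with 0 and 2 reads in WT against 14 and 28 reads in Dicer cKO sperm, was 32.0-fold higher by shares of listed reads (95% counting interval 8.33 to 272.9). With Dicer cKO replicate 2 left out it missed the threshold (adjusted p = 0.106).

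Both arms of a hairpin mostly changed together. Of 55 hairpins with both arms tested, 20 had both arms lower, 6 had both higher, 8 had 1 arm lower, 7 had 1 arm higher and 14 had neither called. The arms had the same sign in 47 hairpins, and their changes differed by a median of 0.62 on the log2 scale. The difference between the arms was tested for each hairpin on the same edgeR fit (diffSpliceDGE, adjusted over the 55 hairpins), a test chosen after the data were seen. It called 4 hairpins (7.27%). On simulated data the test also called some hairpins made without a difference, so single calls are uncertain. In miR-106b, a paralog of the miR-17-92 cluster, the 5p arm made up 44.0% of the hairpin's reads in WT replicate 1 (95% exact interval 33.6 to 54.8) and 51.3% in WT replicate 2 (46.1 to 56.5). In Dicer cKO sperm it made up 96.7% (94.4 to 98.2) and 96.5% (93.7 to 98.3). The 3p arm fell, with 695 and 649 CPM in the WT libraries and 105.7 and 92.5 CPM in those of Dicer cKO sperm (a log2 change of −3.45 with SE 0.879 and edgeR adjusted p = 0.00401). That call was lost with limma (adjusted p = 0.0728) and by edgeR without a count filter (adjusted p = 0.0661). The 5p arm had 545 and 685 CPM in the WT libraries and 3073 and 2552 CPM in those of Dicer cKO sperm, at 1.42, and was not called on its own. miR-106b-5p was called higher with totals alone, with only the 4 compared libraries, with at least 10 CPM in 2 libraries, with limma, and without any 1 of the Drosha cKO libraries (adjusted p from 0.00386 to 0.0493). The arms differed by 4.87 (edgeR adjusted p = 0.00621).

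In miR-130b the 5p arm fell and the 3p arm did not pass the test. miR-130b-5p had 15 and 52 reads in WT against 1 and 1 reads in Dicer cKO sperm (a log2 change of −4.99 with SE 0.989 and edgeR adjusted p = 0.000787), and miR-130b-3p had 15 and 41 reads in WT against 26 and 31 reads in Dicer cKO sperm (log2 change −0.16). The 5p share was 50% and 55.9% in WT against 3.70% and 3.13% in Dicer cKO sperm (adjusted p of the arm difference 0.00712 by edgeR). In miR-15b, whose 3p arm is minor, the 5p share was 99.9% and 99.2% in WT against 91.6% and 87.4% in Dicer cKO sperm (edgeR adjusted p = 0.0376). miR-15b-3p had 40.9 and 430.3 CPM in the WT libraries and 837 and 1701 CPM in those of Dicer cKO sperm, and its WT libraries lay far apart. The fourth hairpin was miR-6914, within the span of Ankrd52 on chromosome 10. miR-6914-3p had 0 and 0 reads in WT against 35 and 30 reads in Dicer cKO sperm and was at least 33.0-fold higher by shares of listed reads, while miR-6914-5p had 1 and 11 reads in WT against 6 and 7 reads in Dicer cKO sperm. The arms of miR-6914 differed with an edgeR adjusted p of 0.00712, on 1 and 11 reads of the hairpin in the WT libraries.

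Without Dicer cKO replicate 2 the arm test called 0 of 67 hairpins, and miR-106b then had an adjusted p of 0.0721. Without Dicer cKO replicate 1 it called 1 of 67, miR-15b, and miR-106b had an adjusted p of 0.0562. Over all settings the highest adjusted p was 0.0721 for miR-106b, 0.0857 for miR-15b, 0.215 for miR-130b and 0.567 for miR-6914, the last without WT replicate 2.

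**Figure D5:**
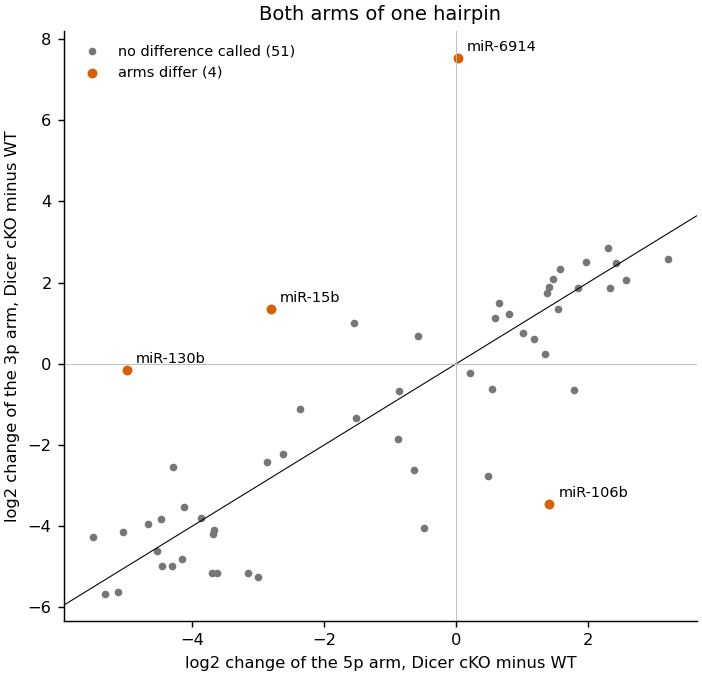
Log2 change of the 3p arm (vertical axis) against that of the 5p arm (horizontal axis), Dicer cKO minus WT sperm, for 55 hairpins with both arms tested; the line marks equal change. Most hairpins lie near the line, and the 4 orange ones, miR-106b, miR-130b, miR-15b and miR-6914, were called for an arm difference.

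Calls in both directions within a seed family were rare, and several families held no call at all. Seeds were counted over the 260 tested miRNAs with a RefSeq sequence only. Of 31 seeds with at least 2 such miRNAs, 1 had calls in both, the seed of miR-34b-5p, miR-449a-5p and miR-34a-5p shown above. In the seed AAAGUGC, miR-93-5p and miR-20a-5p fell and miR-17-5p and miR-106b-5p were not called, with log2 changes from −3.23 to 1.42. In the seed AGCAGCA, 4 of 5 matched members fell, against 31.0% of all tested features. The changes ran from −2.81 to −0.79, the last one not called. The 4 were already counted in the miR-15, miR-16 and miR-195 family. The let-7 seed GAGGUAG had 9 matched members from −0.36 to 1.94, and its summed share was 3.67% and 3.31% in WT against 8.79% and 8.36% in Dicer cKO sperm. In the seed AAUACUG all 3 matched members rose, against 16.1% of all tested features, and the 3 were already counted among the epithelial markers. Their sum was 1.29% and 1.33% in WT against 9.69% and 11.3% in Dicer cKO sperm.

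Endo-siRNAs, which Dicer also makes, were too sparse for a comparison of most entries. A read was present for 711 of 712 in WT replicate 1, 160 in WT replicate 2 and 77 and 63 in Dicer cKO sperm, and 28 had a read in all 4 libraries. Of the 711, 511 had exactly 1 read, and 502 had no read in the other 3 libraries although WT replicate 2 was the deepest of the 4. How the endo-siRNA list was drawn up, and whether WT replicate 1 was used for it, is not stated, so these numbers of entries are no measure of a difference between the groups. All endo-siRNAs summed to 2.60% and 0.542% of listed reads in WT against 1.60% and 1.16% in Dicer cKO sperm, which overlap. In the authors' RPM the sums were 560.8 and 545.1 in WT against 706.3 and 815.7 in Dicer cKO libraries. The difference in the sums of endo-siRNAs was not tested. Only 14 passed the filter, with 2 called lower, 1 higher (31.0% and 16.1% of all tested features were) and a median of 0.01. These counts moved with single libraries: 6 were lower without WT replicate 2, 1 without Dicer cKO replicate 2 or Drosha cKO replicate 3 and none without Drosha cKO replicate 1, while 2 were higher without WT replicate 1. endo-siRNA-Sp105 had 9 and 15 reads in WT against 0 and 0 reads in Dicer cKO sperm and was at least 5.25-fold lower (0.00477 as edgeR adjusted p). endo-siRNA-Sp453 had 2 and 0 reads in WT against 26 and 18 reads in Dicer cKO sperm and was 33.5-fold higher by shares of listed reads (95% counting interval 8.75 to 285.5). The adjusted p was 0.228 with WT replicate 2 left out, 0.138 and 0.0654 with Dicer cKO replicates 1 and 2 left out in turn, and 0.0827 by DESeq2. endo-siRNA-Sp392 had 722 and 484.1 CPM in the WT libraries and 285 and 305 CPM in those of Dicer cKO sperm (a log2 change of −1.67 with SE 0.636 and edgeR adjusted p = 0.0403), and its call was lost without WT replicate 1, either Dicer cKO library, or Drosha cKO replicate 1 or 3. It was also lost with totals alone, the authors' divisor, limma, either other count filter or only the 4 compared libraries. The highest adjusted p of all these was 0.764, without a count filter.

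The lists that remain held few tested members. miR-182, miR-183 and miR-96, clustered miRNAs of sensory and epithelial tissue, had a median of 1.46 over 3 members, of which edgeR called 0 (2 at an unadjusted p under 0.05, and 0 by DESeq2). miR-182-5p had 599.6 and 208 CPM in the WT libraries and 1968 and 1156 CPM in those of Dicer cKO sperm. Called higher were 1 member without Dicer cKO replicate 2 or Drosha cKO replicate 3, and 2 without Drosha cKO replicate 1 or 2. With totals alone, limma, at least 10 CPM in 2 libraries or only the 4 compared libraries 2 were called as well. Some miRNAs bypass Drosha, and of 5 such tested miRNAs edgeR called 0 (0 at an unadjusted p under 0.05, and 0 by DESeq2), with a median of 0.26; 1 was called without WT replicate 1 and 2 with totals alone. The imprinted Dlk1-Dio3 cluster held 0.184% of listed reads in each WT library and 0.214% and 0.200% in the Dicer cKO libraries. Of its 79 members only 4 were tested, and edgeR called 0 (0 at an unadjusted p under 0.05, and 0 by DESeq2); without Dicer cKO replicate 1, 1 of 7 tested was called lower.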

How the data were processed

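Small RNA libraries of cauda epididymal sperm were compared between 2 WT and 2 Dicer cKO libraries. The authors deposited raw counts per mature miRNA or endo-siRNA, and a table of RPM in which each count was divided by 1 library-specific number that exceeds the listed reads; per the submitters' processing notes Bowtie and mm10 were used. Their versions, how reads were counted, which miRNA release served and what the divisor counts: none of these is stated in the sources available. Listed reads were 2.16% and 10.1% of that divisor in WT and 4.43% and 7.01% in Dicer cKO libraries. Per the labels' protocols libraries followed an Illumina protocol, whereas the Ion Torrent Proton is named for the series, so the platform is uncertain.

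The counts of all 7 sperm libraries (3 of them Drosha cKO) went into edgeR 4.0.16 (R 4.3.3), scaled by TMM (0.899 and 0.497 in WT, 1.05 and 1.06 in Dicer cKO), filterByExpr by group, and the two-sided quasi-likelihood test with Benjamini-Hochberg adjustment over all tested features at 0.05. The biological coefficient of variation was 0.459. With 2 libraries a group an exact permutation test cannot go below 0.333, so none was used. Arms of a hairpin were compared with diffSpliceDGE. The scripts were tested on simulated data. Alternatives used DESeq2 1.42.0, limma 3.58.1 on log2(RPM + 1), other scalings and count filters, a replicate block and libraries left out; settings without the shallow Drosha cKO libraries or with the block on the 4 libraries, and the arm test, were added after the data were seen. Ratios with 3 or fewer reads in a group use summed reads, a floor of 3 and 95% exact intervals.

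The members, the gene lists and the rule for named features were chosen with earlier results of these data known. The rule took, from calls with a mean of 10 CPM or more and separate groups, 12 falls and 12 rises of largest size, the 12 most abundant features of each group, up to 4 members of each list, stable abundant features, arm pairs, endo-siRNAs, and leading members of seed families and clusters; 12 others (miR-34a-5p, miR-465a-3p, miR-17-5p, miR-25-3p, miR-205-5p, miR-223-3p, miR-221-3p, miR-128-3p, miR-375-3p, miR-124-3p, miR-126a-3p and miR-429-3p) and the untested miR-92a-3p were chosen after their values were seen. Mature miRNAs (1333 of 1592) were matched by name to RefSeq on GRCm38.p6.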

Additional observations from a re-analysis of the deposited data

How the results depend on the processing

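The number of falls, 104, was 63 with limma on RPM and from 73 to 124 in the other settings. The number of rises, 54, was 101 with totals alone, 96 with only the WT and Dicer cKO libraries in the fit, 119 with that fit and a replicate block, and from 19 to 67 when 1 library was left out. Falls ranged from 89 to 115 when 1 library was left out, and the hairpins with unequal arms, 4, from 0 to 6. No called feature was called in the opposite direction in any setting. Replicate numbers are shared between the groups by label only. Deviations from the group mean correlated at r = 0.3125 between same-numbered WT and Dicer cKO libraries. With 2 libraries a group the deviations mirror each other, so this is a single value, and it was not tested against unrelated libraries. With the replicate block over the sperm libraries 109 features were lower and 66 higher. The block turned 2 of the 3 uncalled members of the miR-183 cluster and miR-106b-5p (adjusted p = 0.0384) into calls of higher level; with the block on the 4 libraries alone 8 let-7 members, 5 stromal markers and 4 members of the miR-23/27/24 clusters were called higher.

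Small changes of uncalled features turned with the scaling. With totals alone the log2 change became 0.14 for miR-466i-5p, 0.52 for miR-130b-3p, 0.093 for miR-30d-5p and 0.37 for let-7a-5p, and the median of the miR-30 family became 0.037. With the authors' divisor they were 0.38, 0.61, 0.30 and 0.26. Without a count filter they were 0.079, 0.42, 0.13 and 0.25, with at least 10 CPM in 2 libraries 0.13, 0.50, 0.18 and 0.34 (miR-30 family 0.023), and with limma on RPM 0.33, 0.68, 0.42 and 0.63 (miR-30 family 0.29). With only the 4 libraries in the fit miR-130b-3p was at 0.26 and let-7a-5p at 0.11, and with the replicate block added at 0.27 and 0.11. miR-6914-5p turned to −0.030 with DESeq2, −0.084 with DESeq2 size factors, −0.21 with miRNAs only and −0.075 in the fit that drops shallow Drosha cKO libraries. The endo-siRNA median turned to −0.24 with DESeq2, −0.16 with its size factors, −2.17 without a count filter, −2.09 with at least 10 CPM in 2 libraries and −1.57 when shallow Drosha cKO libraries were dropped. With 1 library left out, miR-130b-3p ranged from −0.49 to 0.023, let-7g-5p from −0.053 to 0.53, miR-6914-5p from −0.57 to 1.23, the median of miRNAs made without Drosha's complex from −0.10 to 1.75, and the endo-siRNA median from −1.11 to 0.80. The cause of these moves was not tested.

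With 2 libraries a group and 73377 listed reads in the shallowest of the 4, depth limits the size of change that is called in features with few reads, and a feature that was not called is not shown to be equal between the groups.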
